A study of Mus musculus with 2 samples.

Results

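Osteopontin (Spp1), its receptor CD44 and 8 integrin subunits (Itgav, Itgb1, Itgb3, Itgb5, Itgb6, Itgb8, Itga5 and Itga9) were followed in droplet-based single-cell RNA data from mouse uterus taken on gestational day 3.5, ahead of implantation. The 10 genes were taken by symbol from the 32285 features of the deposited tables, and all 10 were found. One library was labelled knockout and came from mice with floxed Mig-6 and Cre at the progesterone receptor gene (Pgrcre/+Mig-6f/f). The other, the control, carried the same floxed alleles without Cre (Mig-6f/f). The floxed locus is Errfi1, whose product Mig-6 restrains the EGF receptor, and Cre driven from Pgr is made where the progesterone receptor gene is active. The labels give no age for the animals, and the series states n = 1 per genotype. There are therefore no replicates and no tests: every difference is between these 2 libraries, and every interval (95%) covers counting error only.

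Barcodes were sorted by marker sums per 10000 unique molecular identifiers (UMIs). Epithelial barcodes had at least 10 UMIs per 10000 from Epcam, Krt8, Krt18 and Cldn7, stromal barcodes at least 10 from Dcn, Col1a2 and Col3a1, and other barcodes neither. The library labelled knockout gave 1419 epithelial, 1051 stromal and 404 other barcodes among 2881 kept, and the control gave 726, 3222 and 334 among 4303. Levels are counts per 1e6 UMIs of the class total (CPM). The libraries differed in depth, with median UMIs of 9531 and 11752 in epithelial, 3635 and 8888 in stromal and 2050.5 and 5774 in other barcodes (labelled knockout and control). Markers that the sorting did not use went with the names: the summed level of 7 further epithelial genes (Krt7, Krt19, Cdh1, Wfdc2, Cldn3, Cldn4, Elf3) was 8825 and 7176 CPM in epithelial against 60.6 and 53.3 CPM in stromal barcodes. Of those 7 genes, Cldn3 alone was lower in stromal barcodes labelled knockout (1.52 CPM) than in control ones (42.1 CPM), and the other 6 were higher, such as Wfdc2 at 39.6 and 8.30 CPM. Errfi1 itself was 513 CPM in epithelial barcodes labelled knockout and 577 CPM in control ones, but 733 and 197 CPM in stromal barcodes, a ratio of 3.72 (3.56 to 3.89). In other barcodes it was 456 and 120.3 CPM, a ratio of 3.79 (3.24 to 4.43). The targeted gene thus went against the label in stromal and other barcodes, and the labels do not say which part of it is floxed. Only 3 barcode sequences occurred in both libraries.

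Osteopontin is a secreted, phosphorylated matrix protein with an Arg-Gly-Asp motif that binds integrins such as alpha v beta 3, while CD44 binds hyaluronan and has been described as another osteopontin receptor. Each integrin is a pair of an alpha and a beta subunit. Alpha v pairs with beta 1, 3, 5, 6 or 8, and alpha 5 and alpha 9 both pair with beta 1. In the uterus of several mammals, osteopontin and integrins at the apical surface of the luminal epithelium are studied as an attachment system for the embryo.

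The 250 bases before the transcription start are shown for the ligand and for the pair of receptor genes that were highest above the control beside it in epithelium. They come from RefSeq on GRCm38.p6, which held promoters of 9 of the 10 genes, and lie at chr5:104434861-104435110 on the plus strand (Spp1), chr2:102901666-102901915 on the minus strand (Cd44) and chr2:83724147-83724396 on the plus strand (Itgav). Each reads 5′ to 3′, and capitals mark letters that match the RUNX core AACCACA or the ETS core AGGAAG on either strand.
Spp1: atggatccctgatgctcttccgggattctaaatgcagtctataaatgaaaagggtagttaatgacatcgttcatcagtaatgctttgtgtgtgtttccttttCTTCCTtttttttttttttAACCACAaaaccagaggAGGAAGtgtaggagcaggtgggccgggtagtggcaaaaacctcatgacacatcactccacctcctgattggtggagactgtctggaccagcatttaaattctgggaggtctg
Cd44: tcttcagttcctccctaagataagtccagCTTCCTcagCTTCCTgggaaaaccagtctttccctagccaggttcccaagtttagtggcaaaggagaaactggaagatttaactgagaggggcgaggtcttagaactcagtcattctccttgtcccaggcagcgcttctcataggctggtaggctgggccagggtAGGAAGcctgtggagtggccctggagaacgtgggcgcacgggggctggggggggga
Itgav: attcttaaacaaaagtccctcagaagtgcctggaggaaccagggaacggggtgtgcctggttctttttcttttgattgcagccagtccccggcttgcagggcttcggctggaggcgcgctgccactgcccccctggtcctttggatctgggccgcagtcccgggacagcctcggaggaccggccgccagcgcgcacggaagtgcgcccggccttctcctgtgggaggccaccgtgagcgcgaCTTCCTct
Spp1 held the RUNX letters once, starting 129 bases before the start, and the ETS letters at 148 and 112 bases before it. Cd44 held the ETS letters at 221, 212 and 56 bases, and Itgav at 8 bases. Of 27025 promoter windows of this length, 4.46% held the RUNX letters and 29.2% the ETS letters. The AP-1 letters TGANTCA (in 6.87% of all windows) and the steroid receptor half-site TGTTCT (in 16.2%) were in none of the 3 windows.

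Osteopontin stood farthest above the control of all 10 genes in epithelium. Spp1 was 1316 CPM (1299 to 1333, from 22935 UMIs) in epithelial barcodes labelled knockout and 258 CPM (248 to 267, from 2745 UMIs) in control ones, a ratio of 5.11 (4.91 to 5.32). Of 13366 genes with at least 20 UMIs in epithelium, 123 had a larger ratio. The summed level of 4 B or plasma cell markers (Cd79a, Jchain, Igkc, Mzb1) in epithelial barcodes was 90.1 and 8.82 CPM, a ratio of 10.2 (8.29 to 12.7) carried by Igkc and Jchain, and its part in the epithelial ratios was not tested. The share of barcodes with a Spp1 UMI was 67.2% (64.7 to 69.7) in the library labelled knockout and 17.2% (14.5 to 20.2) in the control. For thinned shares, barcodes were thinned to 2000 UMIs and shallower ones were left out. The shares were then 52.3% of 1368 barcodes and 9.99% of 711, so they also differed at equal depth. In stromal barcodes, taken as a type with little Spp1, the thinned shares were 1.59% and 0.188%.

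The control level rested on few epithelial barcodes. Per barcode, the median was 4.24 Spp1 UMIs per 10000 in the library labelled knockout, with a 90th percentile of 33.9 and a maximum of 261. In the control the median was 0, the 90th percentile 2.47 and the maximum 84.1. The tenth of epithelial barcodes with most Spp1 UMIs held 51.3% of them in the library labelled knockout (142 barcodes) and 96.2% in the control (73 barcodes). Osteopontin RNA was therefore spread over most epithelial barcodes of one library and gathered in a minority of the other. When epithelial barcodes were put into 3 equal groups by depth, Spp1 was 1188, 1319 and 1342 CPM from the shallowest to the deepest in the library labelled knockout, and 57.7, 93.2 and 406 CPM in the control. Without the deepest group the ratio was 16.2, so the fold depends on the deep control barcodes while its direction does not.

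**Figure D1:**
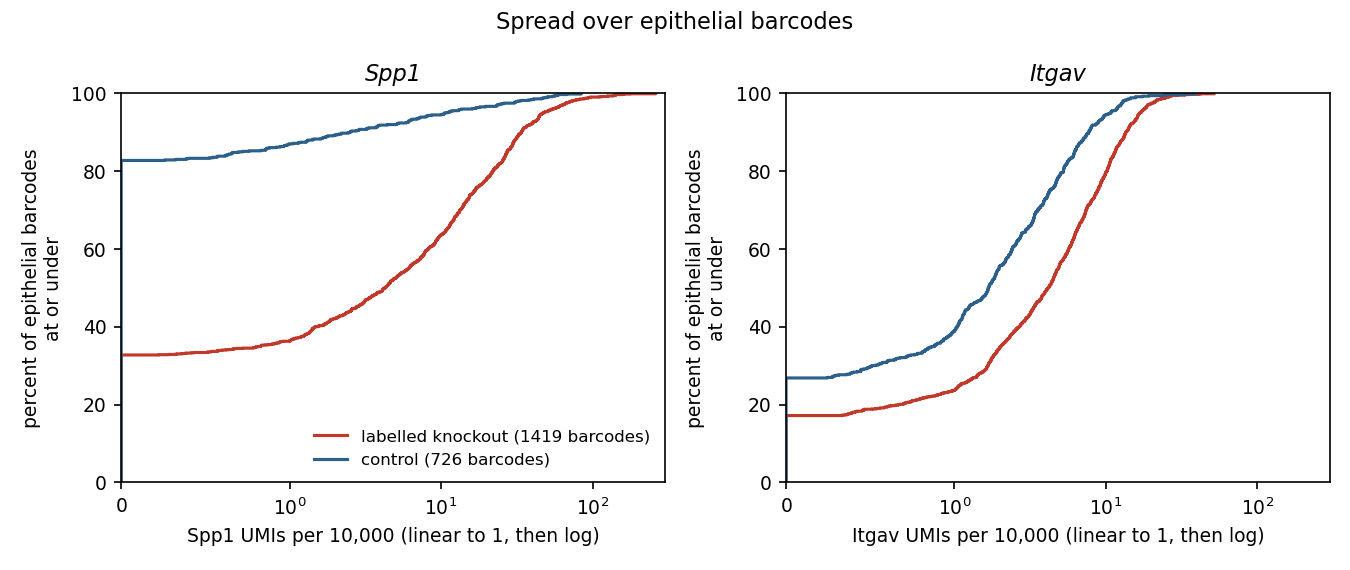
Cumulative share of epithelial barcodes (vertical axis, percent) at or under a given number of Spp1 (left) or Itgav (right) UMIs per 10000 (horizontal axis), for 1419 barcodes labelled knockout and 726 control barcodes. Each curve starts at the share of barcodes with no UMI of the gene; the share with a Spp1 UMI was 67.2% in the library labelled knockout and 17.2% in the control.

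Within the epithelium, Spp1 was found almost only in barcodes without gland markers. Gland-marked barcodes (at least 10 UMIs per 10000 from Foxa2, Cxcl15, Prss28 and Prss29) numbered 65 in the library labelled knockout and 98 in the control. They held 3 Spp1 UMIs in the library labelled knockout (5.99 CPM, 1.24 to 17.5) and 0 in the control, where 0 of 98 barcodes allows a share with a UMI of up to 3.06% (3 counts), which is no limit on the cells that express the gene. Epithelial barcodes without these markers had 1355 and 291 CPM, a ratio of 4.66 (4.48 to 4.85). The marked set rests on genes that differed between the libraries, with Prss29 at 187 and 1746 CPM and Foxa2 at 8.38 and 9.29 CPM in all epithelial barcodes.

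Within each library, epithelial barcodes without gland markers were set apart by Spp1, at 5 or more UMIs per 10000 (high) or at 0. High barcodes were 674 of 1354 (49.8%) in the library labelled knockout and 58 of 628 (9.24%) in the control, and barcodes at 0 were 402 (29.7%) and 503 (80.1%). Since Spp1 chose these barcodes, and each set comes from 1 library, their other genes are a description. High barcodes were deeper, with median UMIs of 12245 against 6396 at 0 in the library labelled knockout and 17718 against 11313 in the control.

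In the control, Spp1-high barcodes carried more cell cycle RNA, and less of several genes known to respond to progesterone in luminal epithelium, than barcodes at 0. Mki67, a proliferation marker, was 43.5 CPM in high barcodes against 1.18 CPM at 0, and Top2a, the topoisomerase of dividing cells, 119 against 12.8 CPM. Ihh, the Hedgehog ligand induced by progesterone, was 3.48 CPM in high barcodes against 43.4 CPM at 0, on 4 and 295 UMIs. Calb1, a calcium-binding protein, was 70.5 against 419.9 CPM, and Errfi1 was 192 against 644 CPM. In the library labelled knockout Mki67 was 1.05 CPM in high barcodes and 1.57 CPM at 0, on 10 and 5 UMIs. Top2a was 2.93 and 2.19 CPM there, on 28 and 7 UMIs, so little cell cycle RNA was present to compare. Of 6 cell cycle genes, 5 were higher in high barcodes there, but only Rrm2, a subunit of ribonucleotide reductase, had an interval clear of 1 (18.8 against 10.7 CPM, ratio 1.77, 1.22 to 2.63). In the control all 6 were higher, with ratios between 5.28 (Mcm5) and 37.1 (Birc5). Calb1 was again lower in high barcodes of the library labelled knockout (6.60 against 40.1 CPM), while Errfi1 in that library was 471 against 576 CPM. The control values rest on 58 high barcodes, and the difference between the libraries was not tested.

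Ranked after the values were seen, the 50 genes leading in Spp1-high barcodes shared 9 genes between the libraries (18.0% of each list): Guca2b, Pinlyp, Prap1, Paox, Tmprss4, Gas7, Ctsl, Ly6a and Krt6b. Prap1, a proline-rich secreted protein, was 17545 CPM in high barcodes against 5922 CPM at 0 in the library labelled knockout, and 6017 against 554 CPM in the control. Barcodes at 0 likewise shared 9 leading genes, among them the glutathione transferases Gstm1, Gstm2 and Gsta4 and the keratin Krt23. Foxa2, the gland transcription factor, was 3.42-fold lower in high barcodes than at 0 in the library labelled knockout, on 42 and 48 UMIs, and 1.74 and 1.32 CPM in the control on 2 and 9 UMIs. Foxa2 is part of the gland marker sum that had set barcodes aside, so these values cover only what that limit left. The high barcodes were also deeper, so no trait of them is read from Foxa2.

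**Figure D2:**
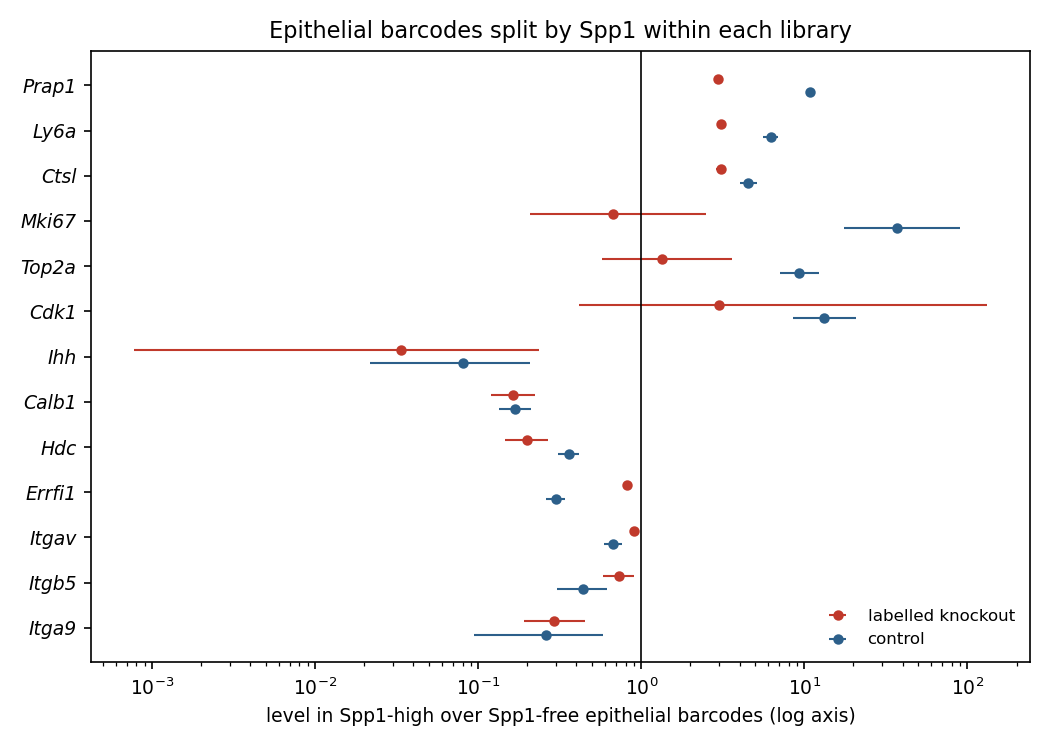
Ratio of levels (log axis) between Spp1-high and Spp1-free epithelial barcodes without gland markers, within the library labelled knockout and within the control, with 95% counting intervals. Mki67, Top2a and Cdk1 lie above 1 in the control with intervals clear of 1, and Ihh, Calb1 and Hdc lie below 1 in both libraries.

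Outside the epithelium, Spp1 was found in leukocytes. Barcodes marked as NK or lymphoid had 160.2 CPM (114 to 219, 39 UMIs) in the library labelled knockout and 406 CPM (357 to 461, 245 UMIs) in the control, 2.54-fold lower (1.80 to 3.65). The thinned shares of these barcodes with a Spp1 UMI were 24.1% of 54 (13.5 to 37.6) and 31.4% of 86 (21.8 to 42.3), and their intervals overlap. Thinning left out the shallower of 124 and 89 such barcodes, mostly in the library labelled knockout. Before thinning the shares were 16.9% and 42.7%, at unequal depth. Macrophage-marked barcodes had 245 CPM in the library labelled knockout and 162 CPM in the control, on 15 and 46 UMIs, a ratio of 1.51 (0.783 to 2.75) with no settled direction. Endothelial-marked barcodes had 3 Spp1 UMIs among 46 barcodes labelled knockout and 0 among 54 control barcodes, and mural-marked barcodes (smooth muscle and pericytes) 10 among 74 and 0 among 35. Barcodes with none of the marker sums held 71 of the 139 Spp1 UMIs of other barcodes labelled knockout (252 CPM, in 14 of 117 barcodes) and 3 of the 294 in the control (6.29 CPM). Other barcodes as a whole had 146 and 133 CPM, a ratio of 1.09 (0.887 to 1.34). That ratio was 0.725 with a class limit of 5 per 10000 and 3.70 with a limit of 20, so it has no settled direction.

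The Spp1 counted in stroma was set against the epithelial RNA found there. Stromal barcodes held 39 Spp1 UMIs in the library labelled knockout (9.89 CPM) and 17 in the control (0.576 CPM), a ratio of 17.2 (9.49 to 32.4). Per UMI of Wfdc2, an abundant epithelial gene, the library labelled knockout had 0.250 Spp1 UMIs in stroma (0.171 to 0.357) and 0.215 in epithelium, and the control 0.0694 in stroma (0.0398 to 0.113) and 0.0555 in epithelium. At the epithelial ratio, the Wfdc2 counted in stroma would bring 33.6 and 13.6 Spp1 UMIs, close to those counted. Per UMI of all 7 further epithelial genes the figures were 35.6 and 56.4 UMIs; the control figure includes the Cldn3 counted in stroma (1242 of 1572 UMIs of the list). The stromal Spp1 ratio is therefore given without a reading as stromal expression. The calculation by Wfdc2 gave at most 0.293% of the stromal UMIs of Cd44, Itgb3 and Itgb5 in the library labelled knockout. For Itgb1, Itgb8, Itga5 and Itga9 it gave at most 0.768% there. It gave more for Itgb6 (22.4%, on 5 stromal UMIs) and Itgav (5.18%), beside 6.80% and 1.16% in the control.

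**Figure D3:**
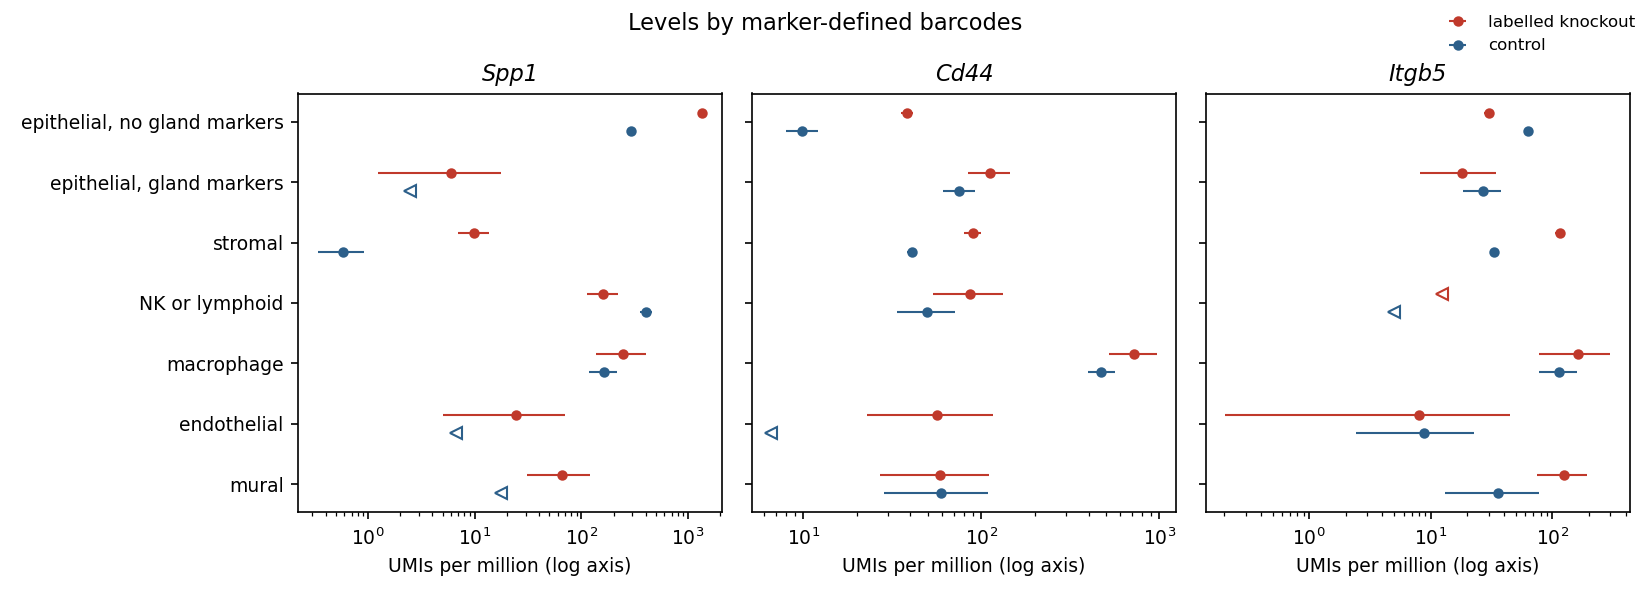
Levels of Spp1, Cd44 and Itgb5 in CPM (log axis) in barcodes set apart by markers, with 95% Poisson intervals, for the library labelled knockout and the control. Open triangles stand at the level of 3 counts where no UMI was found. Spp1 is highest in epithelial barcodes without gland markers in the library labelled knockout (1355 CPM) and in NK or lymphoid barcodes in the control (406 CPM).

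CD44, the hyaluronan receptor, was higher in both main classes. In epithelial barcodes Cd44 was 40.5 CPM (706 UMIs) in the library labelled knockout and 17.4 CPM (185 UMIs) in the control, a ratio of 2.33 (1.98 to 2.76). With barcodes thinned to 2000 UMIs the ratio was 1.83, under 2-fold, and the shares with a UMI were 8.26% and 4.22%. Cd44 was distributed unlike Spp1, with more in gland-marked barcodes. These had 112 CPM in the library labelled knockout and 75.2 CPM in the control, against 38.4 and 9.86 CPM without gland markers, where the ratio between libraries was 3.90 (3.13 to 4.90). Of 146 epithelial Foxa2 UMIs labelled knockout, 42 lay in Spp1-high and 48 in Spp1-free barcodes without gland markers. Of 99 in the control, 2 and 9 did. The part of gland cells missed by the marker limit in the ratio of 3.90 was not tested. Stromal barcodes had 89.3 and 40.6 CPM, a ratio of 2.20 (1.95 to 2.48), and thinned shares of 12.0% and 6.38%. Macrophage-marked barcodes had the highest level, 719 CPM (44 UMIs) and 473 CPM (134 UMIs), a ratio of 1.52 (1.06 to 2.15). Endothelial barcodes had 7 Cd44 UMIs in the library labelled knockout, in 2 barcodes, and 0 in the control.

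Integrin alpha v, a subunit shared by several osteopontin-binding integrins, was higher in epithelium than in stroma in both libraries, and was also found in macrophages. Itgav was 570.4 CPM (559 to 582) in epithelial barcodes labelled knockout and 289.9 CPM (279.8 to 300.3) in control ones, a ratio of 1.97 (1.89 to 2.05), just under 2-fold. Scaled by the median of gene ratios in place of total UMIs, it was 2.16. The median per barcode was 4.15 and 1.68 UMIs per 10000, and the thinned shares were 53.5% and 35.6%, both higher in the library labelled knockout, while the 10th percentile was 0 in both. Between depth groups Itgav ran from 535 to 605 CPM in the library labelled knockout, about as narrow a range as that of Spp1 there, and from 276 to 325 CPM in the control, where Spp1 ran more widely. Gland-marked barcodes had 293 and 205 CPM, a ratio of 1.43 (1.16 to 1.76). In stroma Itgav was 71.3 and 44.6 CPM, a ratio of 1.60 (1.40 to 1.82). Macrophage-marked barcodes had 310.5 CPM (187 to 485) and 282 CPM (224 to 352), on 19 and 80 UMIs. Within Spp1-high barcodes Itgav was no higher than at 0, with 545 against 606 CPM in the library labelled knockout and 219 against 326 CPM in the control.

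Beta 5, a vitronectin-binding partner of alpha v, went opposite ways in the 2 tissues. In epithelial barcodes Itgb5 was 29.8 CPM (519 UMIs) in the library labelled knockout and 59.5 CPM (634 UMIs) in the control, a ratio of 0.501 (0.445 to 0.563). That value lies just inside the 2-fold limit and passed it with thinned barcodes (0.356), with means over barcodes (0.488) and without gland-marked barcodes (0.473). In stromal barcodes it was 116 CPM (456 UMIs) and 33.2 CPM (979 UMIs), a ratio of 3.49 (3.11 to 3.90), and the thinned shares were 19.3% and 5.91%. The order of the classes was turned round, with epithelium 3.88-fold below stroma (3.42 to 4.41) in the library labelled knockout and 1.79-fold above it (1.62 to 1.98) in the control. Mural-marked barcodes had 124 and 35.5 CPM, on 19 and 6 UMIs. Of stromal barcodes, 31.4% in the library labelled knockout and 5.74% in the control passed the mural marker limit, of which Des gave most UMIs, and without them the stromal ratio of Itgb5 was 3.42. In stroma Des was 753 and 419 CPM. Myh11 (8.37 and 33.3 CPM), Cnn1 (15.5 and 27.4) and Actg2 (18.3 and 45.8) were lower in the library labelled knockout. Rgs5, Notch3 and Cspg4 had ratio intervals that include 1. The barcodes past this limit are therefore not read as a share of mural cells.

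Beta 3, the partner of alpha v in the best known osteopontin receptor, was low in epithelium. Itgb3 had 30 and 12 UMIs in epithelial barcodes (1.72 and 1.13 CPM), a ratio of 1.53 (0.760 to 3.28) with no settled direction. In stroma it was 111 CPM in the library labelled knockout and 47.9 CPM in the control, a ratio of 2.32 (2.08 to 2.58), and the thinned shares were 19.6% and 9.04%. Endothelial barcodes had 161 and 130.2 CPM, on 20 and 59 UMIs, with overlapping intervals (98.6 to 249 and 99.2 to 168). Epithelium and stroma thus differed in Itgb3 in both libraries, with stroma 64.5-fold and 42.5-fold above epithelium.

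Beta 6, an epithelial subunit that with alpha v activates latent TGF-beta, was 44.0 CPM in epithelial barcodes labelled knockout and 36.0 CPM in control ones, a ratio of 1.22 (1.08 to 1.38). Stroma had 5 and 28 UMIs of Itgb6 (1.27 and 0.949 CPM), and other barcodes 0 and 1. Beta 8, which also pairs with alpha v to activate TGF-beta, was 101 and 93.6 CPM in epithelium, a ratio of 1.08 (0.999 to 1.17), and 85.2 and 63.0 CPM in stroma, a ratio of 1.35 (1.20 to 1.52). In gland-marked barcodes Itgb8 was 71.9 and 31.1 CPM on 36 and 38 UMIs, a ratio of 2.31 (1.42 to 3.75). Both TGF-beta activating subunits thus stayed within 2-fold in the main classes. In other barcodes Itgb8 was 34.7 and 14.5 CPM, a ratio of 2.39 (1.42 to 4.01) on 33 and 32 UMIs, and the ratio was 1.79 when doublets were kept and 1.62 with a class limit of 20 per 10000.

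Beta 1, the common partner of alpha 5, alpha 9 and many other alpha subunits, was within 2-fold in all 3 classes. Itgb1 was 316 and 240.2 CPM in epithelium, a ratio of 1.31 (1.25 to 1.38), and 274 and 258 CPM in stroma, a ratio of 1.06 (0.997 to 1.13). NK or lymphoid barcodes had 735 and 476 CPM, a ratio of 1.54 (1.27 to 1.87), and mural barcodes 716 and 811 CPM. Alpha 5, the fibronectin receptor subunit, was level in epithelium at 27.7 and 27.3 CPM, a ratio of 1.02 (0.876 to 1.18). In stroma Itga5 was 73.0 and 37.5 CPM, a ratio of 1.95 (1.71 to 2.22), and 2.01 without mural-marked barcodes. Alpha 9, which binds a cryptic site of cleaved osteopontin and tenascin, was low in both main classes. Itga9 was 9.53 and 14.4 CPM in epithelium, a ratio of 0.659 (0.526 to 0.826), and 16.0 and 16.1 CPM in stroma. Macrophage-marked barcodes had 572 CPM (398 to 795) in the library labelled knockout and 208 CPM (159 to 269) in the control, a ratio of 2.75 (1.75 to 4.24) on 35 and 59 UMIs from 25 and 51 barcodes. Lymphatic endothelial barcodes, of which the control had 3, held 4 Itga9 UMIs (368 CPM, 100.1 to 941).

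**Figure D4:**
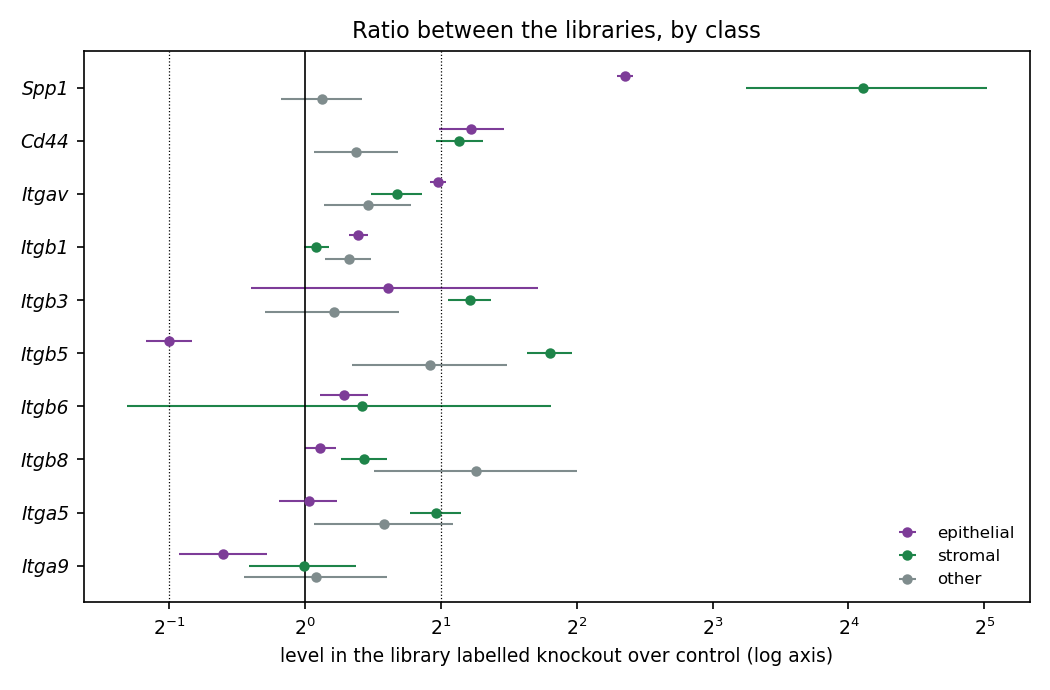
Ratio of the level in the library labelled knockout over the control (log axis; dotted lines at 0.5 and 2) for each gene with at least 20 UMIs in epithelial, stromal and other barcodes, with exact 95% counting intervals. Spp1 and Cd44 lie above 2 in epithelium and stroma, and Itgb5 lies at 0.501 in epithelium and 3.49 in stroma.

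Counted together, 2 of 10 genes (Spp1 and Cd44) were at least 2-fold higher in epithelium and 0 lower, where 5.04% of the 13366 genes with at least 20 UMIs were higher, 15.2% lower and 20.2% either by that fold. In stroma 4 of 10 (Spp1, Cd44, Itgb3 and Itgb5) were higher and 0 lower, against 5.47% higher, 12.8% lower and 18.3% either of 14469 genes. Without Spp1, whose stromal UMIs are not read as stromal expression, 3 of 9 were higher. Of 9 measured genes in other barcodes 1 (Itgb8) was higher and 0 lower, against 4.31% higher, 5.90% lower and 10.2% either of 10414 genes. The median log2 ratio of the genes was 0.34 in epithelium, 0.82 in stroma and 0.38 in other barcodes, beside -0.18, -0.03 and 0.03 over all genes measured there.

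**Figure D5:**
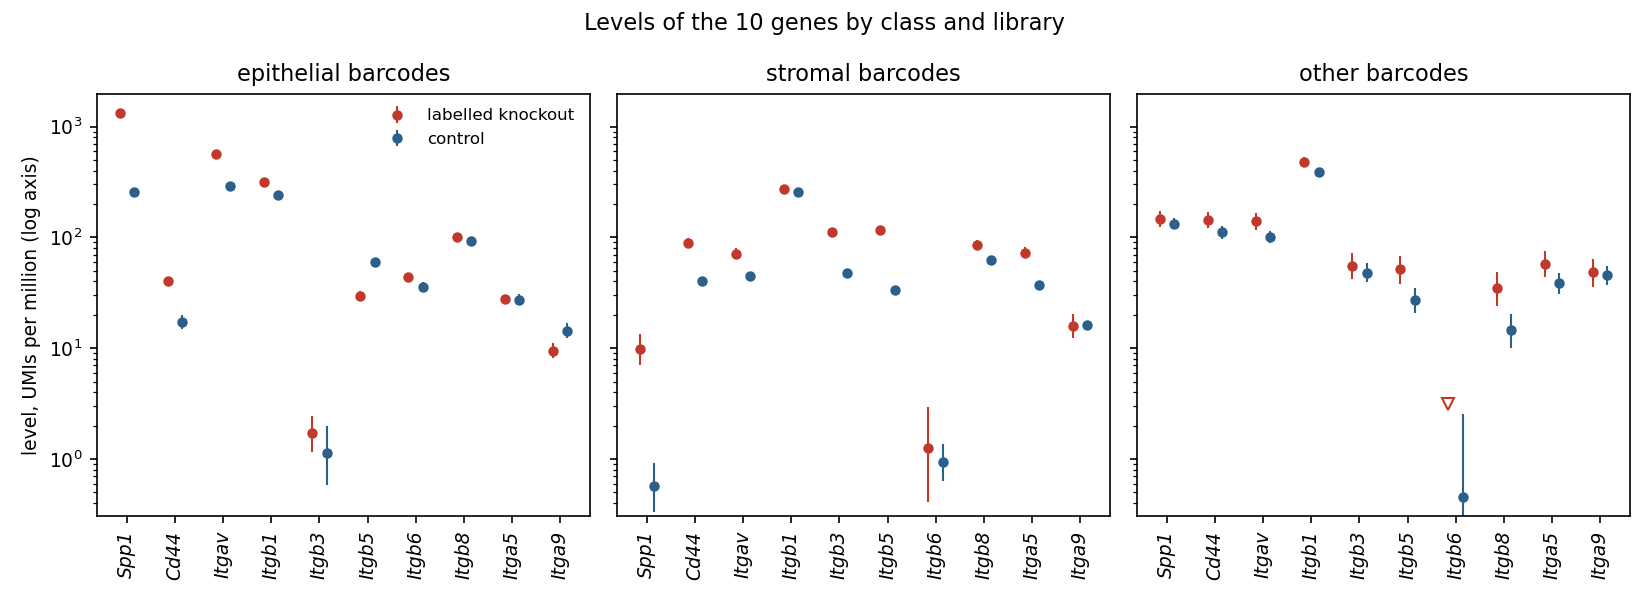
Level of each of the 10 genes in CPM (log axis) in epithelial, stromal and other barcodes of the library labelled knockout and the control, with exact 95% Poisson intervals. The open triangle is the level of 3 counts for Itgb6, of which other barcodes labelled knockout held 0 UMIs. Spp1, Itgav and Itgb6 are higher in epithelium than in stroma in both libraries, and Itgb3 is higher in stroma.

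In epithelium, alpha v was found together with its partners somewhat more often than the product of their separate shares. In thinned epithelial barcodes, Itgav and Itgb8 were both present in 11.5% of barcodes labelled knockout, beside a product of the separate shares of 9.62%, and in 7.03% beside 5.25% in the control. Itgav with Itgb6 was found in 5.70% and 2.67% of barcodes (78 and 19 barcodes), beside 4.50% and 2.50%. Spp1 and Cd44 were both present in 3.58% and 0.141% of epithelial barcodes (49 barcodes and 1 barcode), beside 4.32% and 0.421%. Spp1 and Cd44 were thus found together no more often than the product of their shares. None of these differences from the products was tested.

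Among the 19 other integrin subunits, 8 had at least 20 UMIs in epithelium, of which 3 were higher and 0 lower by 2-fold. Itga2, a collagen receptor subunit, was 23.1 CPM in epithelial barcodes labelled knockout and 1.78 CPM in control ones, a ratio of 13.0 (8.20 to 21.8), and Itga1, another collagen receptor subunit, was 8.03 and 3.75 CPM, a ratio of 2.14 on 140 and 40 UMIs. Itgam, a leukocyte subunit, was 1.72 and 0.469 CPM, a ratio of 3.67 on 30 and 5 UMIs. Itga6 and Itgb4, which form the laminin receptor of hemidesmosomes, were within 2-fold, with ratios of 1.65 and 1.37. In stroma 2 of 13 measured subunits were higher (Itga2 and Itga3) and 2 lower (Itga4 and Itga11, both with intervals that include 1), and in other barcodes 1 of 12 was higher and 1 lower. Itga2 was 8.62 and 1.90 CPM in stroma, a ratio of 4.54 (2.88 to 7.08). Of all measured genes, 5.04% were higher and 15.2% lower by 2-fold in epithelium. The same shares were 5.47% and 12.8% in stroma, and 4.31% and 5.90% in other barcodes. The subunits counted as lower in stroma and in other barcodes lie near these shares.

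Other integrin ligands differed in both directions. In epithelium 3 of 14 measured ligands were higher and 2 lower by 2-fold. Vcam1, a ligand of alpha 4 integrins, had a ratio of 8.21 (5.15 to 13.9), Icam1, a ligand of leukocyte integrins, 3.60 (3.19 to 4.09), and Ltbp1, which holds latent TGF-beta in the matrix, 5.35 (4.16 to 6.96). Tnc, the matrix protein tenascin C, was 7.10-fold lower (4.81 to 10.8). In stroma 8 of 20 were higher and 3 lower, led by Tnc (3.84, 2.90 to 5.05), Vcam1 (3.78, 2.90 to 4.90), Lrrc32, which anchors latent TGF-beta (3.34, 2.63 to 4.23), and Thbs1, thrombospondin (2.92, 2.63 to 3.24). Tnc, like Itgb5, was thus lower in epithelium and higher in stroma. Fn1, fibronectin, was within 2-fold in both classes, with ratios of 0.662 in epithelium and 1.05 in stroma. In other barcodes 1 of 14 was higher and 0 lower. The shares of all measured genes were 5.04% higher and 15.2% lower in epithelium, and 5.47% and 12.8% in stroma. They were 4.31% and 5.90% in other barcodes. The shares of ligands that were lower in epithelium and stroma lie near these. The bone-associated relatives of osteopontin (Dmp1, Ibsp, Mepe and Dspp) had under 20 UMIs in each class.

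A list of 7 protease genes drawn up around osteopontin cleavage had 3 measured in epithelium. Mmp7, matrilysin, was 78.5 CPM in the library labelled knockout and 24.4 CPM in the control, a ratio of 3.22 (2.81 to 3.69), and Plau, urokinase, 24.3 and 7.79 CPM, a ratio of 3.12 (2.46 to 3.99). Mmp2 was 3.49-fold lower (1.83 to 6.93) on 15 and 32 UMIs. All 3 measured genes of this list were within 2-fold in stroma, and both measured in other barcodes were too. Among 15 genes of CD44 and hyaluronan biology, 0 of 9 measured in epithelium were higher and 2 lower (Vcan and Hmmr), 1 of 14 in stroma was higher and 3 lower, and 0 of 9 in other barcodes were higher and 2 lower. In stroma Cemip, which degrades hyaluronan, had a ratio of 3.42 (2.31 to 4.97). Vcan, the proteoglycan versican, was 2.35-fold lower there (2.10 to 2.63), and Has2, the hyaluronan synthase, 2.64-fold lower on 23 and 454 UMIs. Of 15 genes of the adhesion machinery inside the cell, 13 of 14 measured were within 2-fold in epithelium (Fermt3 was lower), 13 of 14 in stroma (Bcar1 was higher) and 12 of 13 in other barcodes. Beside these lists, 5.04% of all measured genes were higher and 15.2% lower in epithelium. The shares were 5.47% and 12.8% in stroma, and 4.31% and 5.90% in other barcodes. Beyond 2-fold either way were 20.2%, 18.3% and 10.2% of all measured genes in the 3 classes.

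The genes whose levels followed Spp1 most closely over 14 points (7 marker-defined sets of barcodes in each library) were Atf1 (Pearson r 0.836 on log2(CPM + 1)), Pycard (0.813), Fgd3 (0.811), Ell2 (0.806) and Fyb (0.790), among 13271 genes with at least 100 UMIs. The sets of 1 library share its depth and free RNA. Of the 5, Fgd3 was also over 2-fold higher in epithelium (2.19), while Fyb was lower (0.271).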

How the data were processed

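The authors deposited raw UMI counts per gene and barcode and per the file headers these came from Cell Ranger 7.0.1. Per the submitters' processing notes, mm39 and Seurat are listed, with no role stated. Cells were released with trypsin, and a dead cell removal kit was used against blood cells, per the labels' protocols.

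The deposited counts comprised 23317904 UMIs in 3118 barcodes (labelled knockout) and 44871170 in 4627 (control). Barcodes with under 500 genes or over 15% mitochondrial UMIs were dropped, and the highest Scrublet scores (scanpy 1.11.5) were removed at 0.8% per 1000 barcodes (70 and 159 barcodes). A barcode over both marker limits went to the class whose sum was at least 3 times the other; otherwise it was left out (7 and 21 barcodes). Sums of UMIs were scaled to CPM, with exact Poisson, binomial and conditional ratio intervals (scipy 1.17.1), which cover counting error only. Sub-classes used marker sums of at least 10 per 10000 UMIs. A gene was measured with at least 20 UMIs over both libraries. Medians of log2 ratios used 0.5 added UMIs. The ratio and fold count were tested on simulated counts. All 10 genes are named. From each other list, at most 4 genes past 2-fold are named per class, those whose interval lies farthest from 1. Genes and lists were chosen with earlier results of these data known. The mural, gland and depth exclusions and the split by Spp1 were chosen after seeing the data.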

Additional observations from a re-analysis of the deposited data

Results flagged for a closer look

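Itgb5 is set apart because its ratio of labelled knockout over control lay below 1 in epithelium (0.501, 0.445 to 0.563) and above 1 in stroma (3.49, 3.11 to 3.90). The stromal ratio was 6.96 times the epithelial one. With 1 library per genotype this difference was not tested.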

How the results depend on the processing

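No paired analysis was possible because each genotype has 1 library. Over 29 ratios, 12 settings gave 290 alternative values, of which 265 lay inside the counting interval of the reported ratio, 25 outside it and 0 reversed a ratio beyond 2-fold; 16 crossed the 2-fold limit. The epithelial Spp1 ratio of 5.11 was 6.52 with thinned barcodes, 6.35 as a mean over barcodes, 5.61 with median of ratios scaling, 4.66 without gland-marked barcodes and 16.2 without the deepest of 3 depth groups. The count of genes beyond 2-fold in epithelium, 2, was 4 by means over barcodes, where 20.7% of all genes passed, and 6 at 1.5-fold, where 36.5% did. The count in stroma stayed between 3 and 6, beside 4 as reported. The share of all genes past the limit in stroma was 18.3% as reported. It was 11.5% with a minimum of 100 UMIs, 14.7% with thinned barcodes and 34.1% at 1.5-fold. In other barcodes the count of 1 was 0 with a class limit of 5 per 10000 (10.5% of all genes), with all deposited barcodes (10.6%), with doublets kept (10.2%), with thinned barcodes (9.64%) and with a minimum of 100 UMIs (4.07%), and 2 with a class limit of 20 (17.5% of all genes) or at 1.5-fold (27.1%). The Spp1 ratio there was 0.725 with a limit of 5 and 3.70 with a limit of 20, so it has no settled direction; the cause was not tested. The leukocyte, endothelial and mural sets hold 3 to 124 barcodes each, and their intervals are wide.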

Other observations

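Mixed barcodes held 2 Spp1 UMIs among 7 barcodes labelled knockout and 1 among 21 control barcodes. In Spp1-high epithelial barcodes labelled knockout, the immunoglobulin genes Igkc and Igha were 133 and 65.0 CPM, against 12.2 and 5.96 CPM in barcodes with Spp1 at 0.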
